A study of Mus musculus with 6 samples.

Results

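The Fc gamma receptors of mouse microglia were represented by 6 genes, taken by gene name from the deposited table of 54532 genes. They were Fcgr1, Fcgr3 and Fcgr4, which encode activating receptors for IgG, Fcgr2b, which encodes the inhibitory receptor, Fcer1g, which encodes the signalling chain shared by the activating receptors, and Fcgrt, which encodes the heavy chain of the neonatal receptor FcRn. RNA-seq read counts came from N9 cells, an immortalized microglial line of mouse origin, in 6 libraries. The 3 control libraries came from untreated cells and the 3 LPS libraries from cells given lipopolysaccharide, the bacterial outer-membrane glycolipid sensed by TLR4, at 1 µg/ml for 6 h. The groups share the line and its culture medium and differ in LPS. The labels number the replicates but do not say whether they were separate cultures, so p-values measure the spread between these libraries, which may be technical.

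Fc gamma receptors bind the constant part of IgG and let microglia and other phagocytes take up antibody-coated particles. The activating receptors signal through the ITAM of the common gamma chain (Fcer1g), which recruits the kinase Syk once Src-family kinases have phosphorylated it, whereas FcγRIIb (Fcgr2b) carries an ITIM that recruits inositol and tyrosine phosphatases. FcRn (Fcgrt with B2m) works inside the cell, where it returns IgG and albumin from endosomes to the surface. Signalling through interferons and the myeloid factor PU.1 are known inputs to transcription of the activating receptor genes in macrophages.

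LPS raised transcripts of 2 activating receptors, Fcgr1 and Fcgr4, and lowered those of the third, Fcgr3, and of Fcgrt. Fcgr2b and Fcer1g did not pass the test. Of the 6 genes, 2 rose and 2 fell at an adjusted p under 0.05 (edgeR's quasi-likelihood test, Benjamini-Hochberg over the 12296 genes tested), where 34.3% of all tested genes were called, 18.7% as risen and 15.7% as fallen. Fcgr4 alone among the 6 was a differentially expressed gene (DEG), which also needs an absolute log2 fold change over 1.5 and which 2.65% of tested genes reached, 2.40% upward and 0.252% downward. The groups did not overlap in 5 of the 6 genes, 2 with LPS above control and 3 with LPS below it, against 45.3% of tested genes (23.7% above, 21.5% below). The 6 genes each passed the filter on low counts, and the median log2 fold change of all tested genes was 0.004.

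The libraries held 16363767 to 17956772 counts, so that 3 counts were worth 0.161 to 0.19 CPM, the count scaled by the library's normalized total. Within a group, libraries differed by more than sampling noise (chi-square statistic per gene 3.55 to 7.71). Of 15 myeloid markers, 14 had more than 3 counts in some library and their summed level was 3293 to 3328 CPM in control and 3269 to 3376 CPM in LPS, but the microglial marker Sall1 stayed at or under 3 counts and P2ry12 at 3 to 6. No NK cell marker of 6 and no T cell marker of 5 exceeded 3 counts in any library. The summed level of 17 hepatocyte markers was 57, 73.8 and 83.5 CPM in control replicates 1, 2 and 3 and 130 to 134 CPM in LPS, most of it Hp, which had 883, 876 and 949 reads in the controls and 1965, 2115 and 2075 in LPS. Hp and Ambp were the markers with more than 3 counts in every library. Without them, the sum of the other 15 was 0.467, 17.1 and 26.4 CPM in control replicates 1, 2 and 3, and 0.244 to 0.731 CPM in LPS. Alb had 2, 155 and 292 counts in the controls and 2, 0 and 0 in LPS. The summed level of 10 endothelial markers was 48.8 to 55.5 CPM in control and 55.5 to 63.4 CPM in LPS, with 6 of the 10 over 3 counts in some library and 2 at 0 in every library. Kdr among them had 2, 2 and 8 reads in the controls and 13, 19 and 21 in LPS. Vwf, not called and most of the endothelial sum, had 692, 797 and 835 reads in the controls and 711, 835 and 844 in LPS. Stab2, also not called, had 15, 25 and 25 reads in the controls and 11, 22 and 12 in LPS. The part of endothelial transcripts in the Fcgr2b and Fcgrt results was not tested. Since Fcgrt and Fcgr2b are also transcribed in liver, their values with and without control replicates 2 and 3 are given with each gene. In bulk libraries such as these, a change in the share of cells with a transcript and a change in transcript per cell cannot be told apart.

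The sequences just before the start sites of the 3 genes of activating receptors are shown because the called changes of these genes differed in direction. Each is 150 bases before the start in RefSeq on GRCm38.p6, written along the gene's own strand, for Fcgr1 at chr3:96293970-96294119 (minus strand), for Fcgr4 at chr1:171018776-171018925 (plus strand) and for Fcgr3 at chr1:171059404-171059553 (minus strand). The RefSeq starts of Fcgr3 lie inside the gene as the deposited table delimits it. Motifs were searched in the 250 bases before each start, of which the 150 nearest are printed. Capitals mark matches, on either strand, to the interferon gamma activated site (GAS, TTCNNNGAA), the interferon-stimulated response element (ISRE, GAAANNGAAA) or the PU.1 core (GAGGAA, read as TTCCTC on the other strand).
Fcgr1: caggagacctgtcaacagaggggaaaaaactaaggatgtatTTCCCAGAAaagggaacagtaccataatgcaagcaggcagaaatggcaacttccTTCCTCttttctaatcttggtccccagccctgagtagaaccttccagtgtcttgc
Fcgr4: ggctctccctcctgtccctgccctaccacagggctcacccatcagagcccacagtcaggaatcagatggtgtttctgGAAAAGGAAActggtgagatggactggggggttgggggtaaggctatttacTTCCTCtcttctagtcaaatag
Fcgr3: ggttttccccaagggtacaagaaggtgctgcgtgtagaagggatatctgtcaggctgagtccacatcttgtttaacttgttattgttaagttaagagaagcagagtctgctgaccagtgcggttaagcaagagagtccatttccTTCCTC

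Fcgr1 held a GAS match, TTCCCAGAA, 109 to 101 bases before its start, and a PU.1 match 55 to 50 bases before it. Fcgr4 held an ISRE match, GAAAAGGAAA, at 73 to 64 bases and a PU.1 match at 22 to 17 bases. Fcgr3 has 2 RefSeq starts, and the window of the first is shown. It held a PU.1 match in the 6 bases next to that start, which lies 15 to 10 bases before the second start, and neither interferon motif in either window. In the 250 bases searched, Fcgr2b, Fcer1g and Fcgrt held none of these 3 motifs. None of the 6 genes held the AP-1 motif (TGANTCA) or the kappa B motif (GGGANNTTCC). Over 32536 promoter windows of that length, 7.04% held GAS, 2.98% ISRE, 23.4% the PU.1 core, 6.73% AP-1 and 1.21% kappa B. GAS and PU.1 letters do not overlap in Fcgr1, nor do ISRE and PU.1 letters in Fcgr4. A match describes the letters and is not a measurement of binding. Any link of these motifs to the direction of change was not tested.

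Fcgr1 (ENSMUSG00000015947, chromosome 3, 96282909 to 96293969, minus strand, GRCm38) encodes FcγRI, the high-affinity IgG receptor. Its level was 18.7, 17.1 and 17.4 CPM in control replicates 1, 2 and 3 and 37.6, 38.4 and 39.3 CPM in LPS replicates 1, 2 and 3. Every LPS library lay above every control library, and the spread within each group was small beside the gap between them. The mean went from 17.7 ± 0.891 CPM (SD, n = 3) to 38.5 ± 0.844 CPM (SD, n = 3). The log2 fold change was 1.12 (SE 0.08, 95% interval 0.96 to 1.28, edgeR adjusted p = 2.1e-08), a 2.17-fold rise. That placed Fcgr1 at rank 430 of 12296 from the highest log2 fold change, short of the DEG threshold. With control replicate 1 as the only control library, the log2 fold change was 1.04 (edgeR adjusted p = 1.5e-05).

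Fcgr4 (ENSMUSG00000059089, chromosome 1, 171018920 to 171029761, plus strand) encodes FcγRIV, an activating receptor for IgG2a and IgG2b that is found on myeloid cells. Control libraries held 107, 125 and 109 reads, or 6.25, 7.09 and 5.86 CPM, and LPS libraries held 348, 289 and 315 reads, or 22.1, 17.6 and 19.2 CPM. The groups did not overlap, and the LPS libraries spread more widely than the controls. The mean rose 3.06-fold, from 6.4 ± 0.625 to 19.6 ± 2.25 CPM (SD, n = 3 each). The log2 fold change was 1.62 (SE 0.12, 95% interval 1.35 to 1.88, edgeR adjusted p = 8.1e-08). The interval reaches below the DEG threshold of 1.5, and a test against that threshold itself (glmTreat) called 0 of the 6 genes. With control replicate 1 as the only control library it was 1.65 (edgeR adjusted p = 2.3e-05). Neutrophils also carry FcγRIV, and the summed level of 9 neutrophil markers was 4.03 to 4.65 CPM in control and 10.5 to 12.2 CPM in LPS, most of it S100a8, with 4 of the 9 over 3 counts in some library. S100a8 had 59, 77 and 78 reads in the controls and 178, 170 and 170 in LPS. Ly6g was at 0 in every library and Mpo at 0 or 1 read. The part of neutrophil transcripts in the Fcgr4 result was not tested.

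Fcgr3 (ENSMUSG00000059498, chromosome 1, 171051174 to 171064935, minus strand) encodes FcγRIII, a low-affinity activating receptor for immune complexes. Its level was 18.3, 16.6 and 16.5 CPM in the controls and 11, 12.6 and 10.4 CPM in LPS. All LPS libraries lay below all controls. The LPS mean of 11.3 ± 1.11 CPM was 66.3% of the control mean by the fitted change, against 17.1 ± 1.05 CPM in control (SD, n = 3 each). The log2 fold change was -0.59 (SE 0.11, 95% interval -0.82 to -0.36, edgeR adjusted p = 5.0e-04). With control replicate 1 as the only control library it was -0.69 (edgeR adjusted p = 0.0052). Fcgr3 shared 166 of its 1733 windows of 50 bases (9.58%) with Fcgr2b in GENCODE transcripts, so how reads in that stretch were assigned is uncertain. At 100 bases the shared part was 44 of 1733 windows (2.54%), and Fcgr1, Fcgr4, Fcer1g and Fcgrt shared no window of 50 or 100 bases with another gene.

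**Figure D1:**
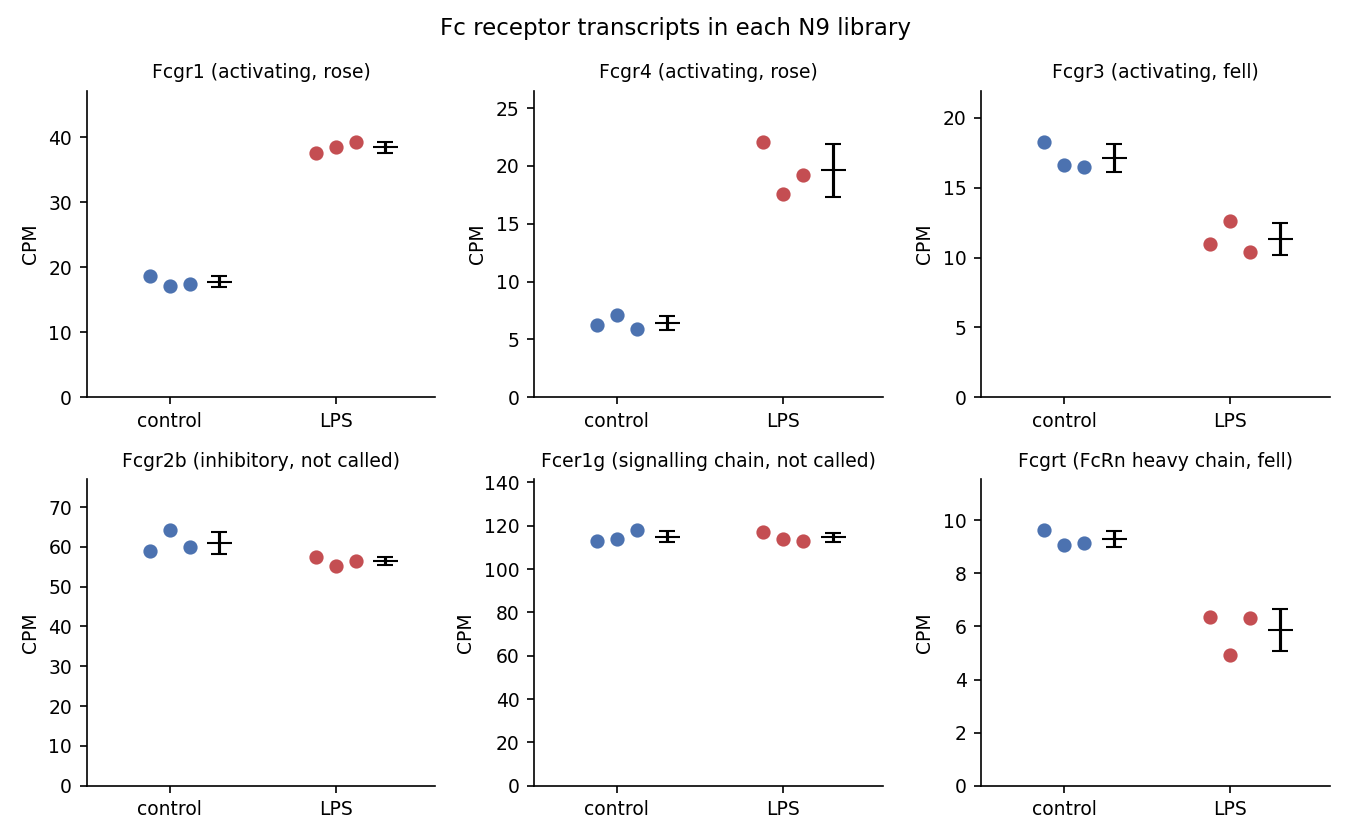
Level of each Fc receptor gene in every library, in CPM (y axis from 0), with control libraries in blue and LPS libraries in red; the bar beside each group is the mean with its SD (n = 3). Fcgr1 and Fcgr4 sit higher in LPS, Fcgr3 and Fcgrt sit lower, and the Fcer1g points of the groups overlap.

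Fcgr2b (ENSMUSG00000026656, chromosome 1, 170958617 to 170976547, minus strand) encodes the inhibitory receptor. It had 1009, 1132 and 1113 reads in the controls and 905, 907 and 928 in LPS. In CPM these were 58.9, 64.2 and 59.9 against 57.4, 55.3 and 56.5, so the LPS libraries lay just below the controls without overlap. The log2 fold change was -0.11 (SE 0.05, 95% interval -0.23 to 0.00), which did not pass the test (edgeR adjusted p = 0.131). The interval leaves room for a fall to -0.23 on the log2 scale and holds nothing near the changes of Fcgr1 and Fcgr4. With control replicate 1 as the only control library it was -0.06 (edgeR adjusted p = 0.628). An antisense gene, Gm38204, overlaps Fcgr2b and had 0 to 3 counts per library. Fcgr2b shared 395 of its 5685 windows of 50 bases (6.95%) with Fcgr3, Gm38204, Gm47409, Cplx2 and Rab3c in GENCODE transcripts, and 251 of 5843 windows of 100 bases (4.3%), so the assignment of those reads, and with it each ratio to Fcgr2b, is uncertain to that extent.

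Fcer1g (ENSMUSG00000058715, chromosome 1, 171229572 to 171234365, minus strand) encodes the common gamma chain. Its level was 113, 114 and 118 CPM in the controls and 117, 114 and 113 CPM in LPS. The groups overlapped, and both had a mean of 115 CPM, with SDs of 2.54 and 2.18 (n = 3 each). The log2 fold change was -0.0041 (SE 0.04, 95% interval -0.10 to 0.09, edgeR adjusted p = 0.953). Its sign changed when single libraries were left out, and with control replicate 1 as the only control library it was 0.02 (edgeR adjusted p = 0.871).

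Fcgrt (ENSMUSG00000003420, chromosome 7, 45092990 to 45103851, minus strand) encodes the heavy chain of FcRn. Control libraries held 9.63, 9.07 and 9.15 CPM and LPS libraries 6.34, 4.94 and 6.33 CPM. The groups did not overlap, with LPS replicate 2 the lowest library at 81 reads. The mean went from 9.28 ± 0.305 to 5.87 ± 0.806 CPM (SD, n = 3 each), and the log2 fold change was -0.66 (SE 0.14, 95% interval -0.96 to -0.36, edgeR adjusted p = 0.00181). With control replicate 1, the control lowest in hepatocyte transcripts, as the only control library it was -0.71 (edgeR adjusted p = 0.0264).

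**Figure D2:**
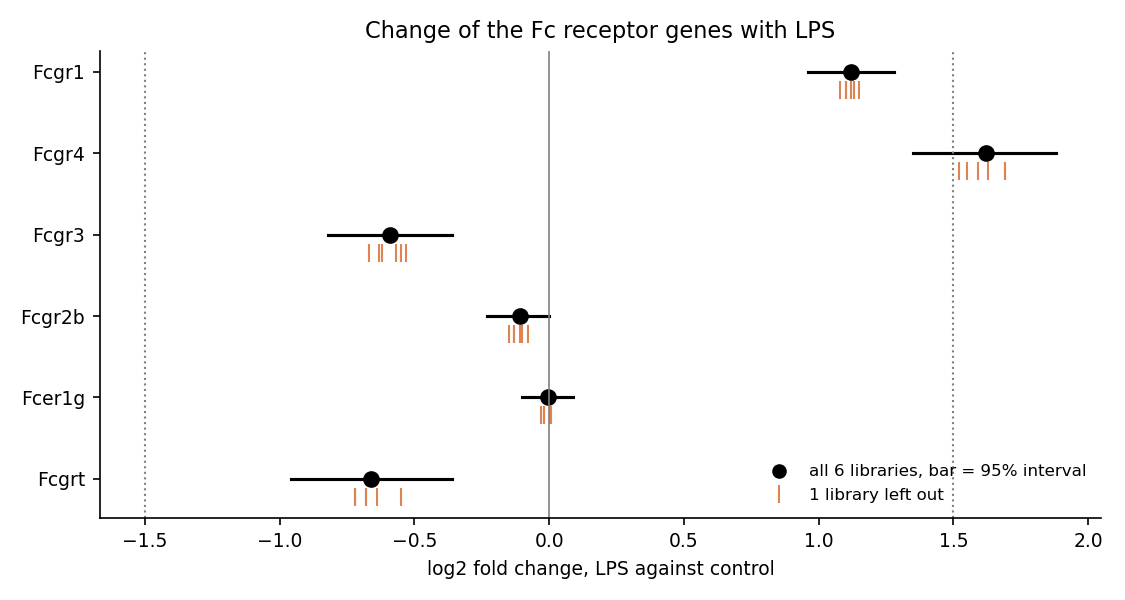
Log2 fold change of LPS against control for each Fc receptor gene; points are the estimates from 6 libraries, bars their 95% intervals, orange ticks the estimates with 1 library left out, and dotted lines the DEG threshold of 1.5 in each direction. The 6 estimates run from 1.62 (Fcgr4) to -0.66 (Fcgrt), and the ticks of Fcgr4 lie between 1.52 and 1.69.

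Levels of different genes were compared per length, as RPKM, the CPM divided by the exon length in kilobases. In control cells Fcer1g was highest at 131 ± 2.9 RPKM (SD, n = 3), above 97.1% of tested genes. Fcgr2b at 10.2, 11.1 and 10.3 RPKM and Fcgr3 at 10.6, 9.54 and 9.48 RPKM overlapped and could not be put in order. Fcgr1 followed at 6.59 to 7.24 RPKM, then Fcgr4 at 4.67 to 5.64 RPKM, then Fcgrt at 4.32 to 4.58 RPKM, and these 3 genes did not overlap one another. After LPS the order below Fcer1g (131 ± 2.49 RPKM, SD, n = 3) had changed. Fcgr4 at 17.6, 14 and 15.3 RPKM and Fcgr1 at 14.5, 14.8 and 15.2 RPKM overlapped at the top, above Fcgr2b at 9.55 to 9.91, Fcgr3 at 6 to 7.24 and Fcgrt at 2.35 to 3.02 RPKM. Both orders rest on the exon lengths. Without the length scaling, Fcgr2b stayed above Fcgr1 and Fcgr4 in LPS, with a mean of 56.4 CPM against 38.5 and 19.6 CPM.

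The mix of the 4 receptor transcripts, taken per length within each library, differed between the groups. The share of Fcgr4 in their summed RPKM was 15.1%, 17.2% and 15% in the controls and 36.3%, 30.7% and 33% in LPS. The share of Fcgr3 was 32.1%, 29% and 30.4% in the controls and 13.1%, 15.8% and 13% in LPS. Fcgr1 went from 21.2% ± 0.996 to 31.8% ± 1.52 and Fcgr2b from 32.6% ± 1.51 to 20.8% ± 0.323 (SD, n = 3 each). Fcgr2b lost share while its own level did not pass the test, as the sum of the 4 genes went from 32.3 ± 0.979 to 46.7 ± 1.43 RPKM. These are shares of transcripts per length and were not measured as receptor protein.

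The 3 activating receptors together stood at 2.24, 1.96 and 2.02 times the Fcgr2b level per length in the controls and at 3.88, 3.78 and 3.74 times it in LPS. The groups did not overlap, with means of 2.07 ± 0.145 and 3.8 ± 0.0747 (SD, n = 3 each). This ratio rests on exon lengths, 5790 bases for Fcgr2b against 2589, 1736 and 1256 for Fcgr1, Fcgr3 and Fcgr4. In CPM, the control means were 61 for Fcgr2b and 17.7, 17.1 and 6.4 for those 3 genes. Without the length scaling, Fcgr2b was thus the larger side in control. Within a library, Fcgr4 to Fcgr2b rose by 1.73 on the log2 scale, from -3.26 ± 0.09 to -1.53 ± 0.14, and Fcgr1 to Fcgr2b by 1.23, from -1.78 ± 0.13 to -0.55 ± 0.05 (log2 ratio of CPM, SD, n = 3 each). Fcgr3 to Fcgr2b moved the other way, by -0.49, from -1.83 ± 0.14 to -2.32 ± 0.16. Relative to Fcer1g, the chain they signal through, the change was 1.12 for Fcgr1, 1.62 for Fcgr4 and -0.59 for Fcgr3. None of these ratios overlapped between the groups, and each of the 7 ratios tested had an exact two-sided permutation p of 0.1 (adjusted 0.1), the smallest that 3 against 3 libraries can give.

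**Figure D3:**
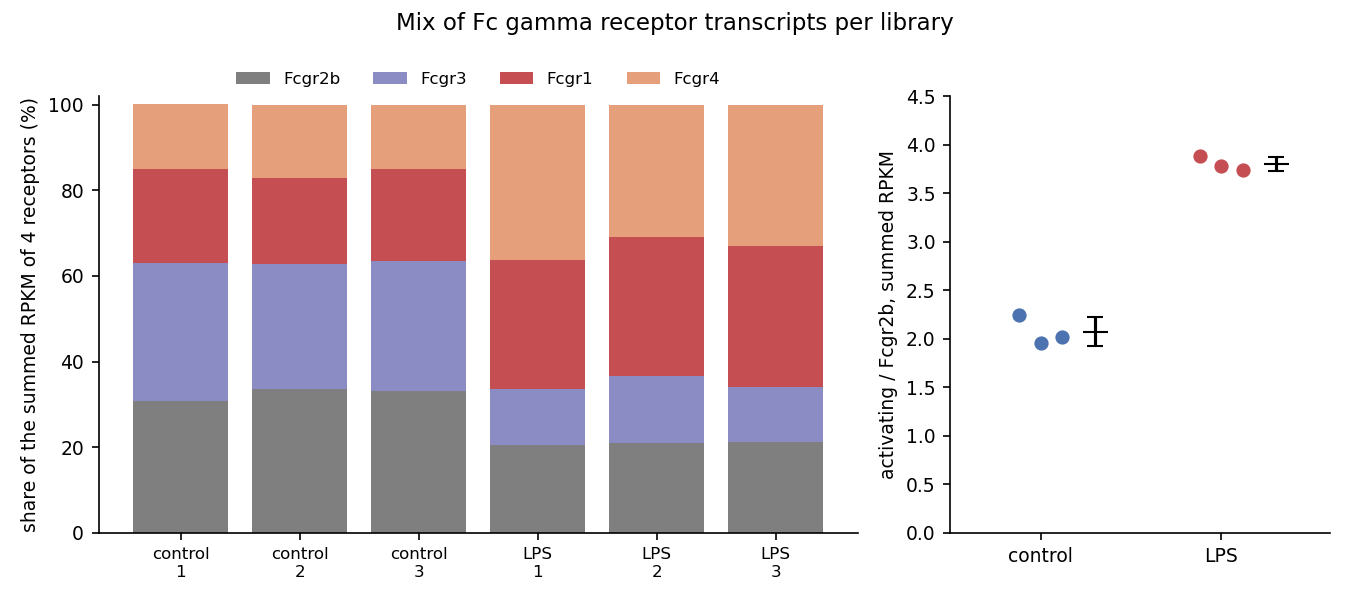
Left, share of each receptor gene in the summed RPKM of the 4 receptor genes (y axis, %) in each library; right, summed RPKM of Fcgr1, Fcgr3 and Fcgr4 divided by that of Fcgr2b, as points per library with mean and SD (n = 3). The Fcgr4 share lies between 15% and 17.2% in control and between 30.7% and 36.3% in LPS, and the ratio on the right between 1.96 and 2.24 and between 3.74 and 3.88.

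FcRn needs B2m, the light chain it shares with class I molecules. B2m rose with a log2 fold change of 0.47 (SE 0.04, edgeR adjusted p = 4.5e-07), from 499 ± 2.21 to 690 ± 38.4 CPM (SD, n = 3 each), while Fcgrt fell. The log2 ratio of Fcgrt to B2m was -5.70, -5.77 and -5.77 in the controls and -6.85, -7.11 and -6.69 in LPS, so that it was lower in every LPS library. The difference of -1.14 was the seventh ratio of that family. Of 13 tested genes for assembly and recycling of FcRn, 2 rose, 1 fell and 10 were not called (median log2 fold change -0.02), beside 18.7% risen and 15.7% fallen over all tested genes. The other gene that rose was Rab11fip1, an effector of recycling endosomes, a DEG with 1.66 (SE 0.10, edgeR adjusted p = 4.9e-09) that glmTreat did not call. Rab11a, the small GTPase of that compartment, fell with -0.17 (SE 0.05, edgeR adjusted p = 0.015). The call of Rab11a was lost without LPS replicate 3 (-0.16, edgeR adjusted p = 0.0579), and with control replicate 1 as the only control library. The count of fallen genes of this list lay between 0 and 2 when libraries were left out. It was 0 without LPS replicate 3 and 2 without control replicate 1.

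Fcgr2b, Fcgr4, Fcgr3 and Fcer1g lie in this order on chromosome 1, with gaps of 42373, 21413 and 164637 bp. Fcgr4 and Fcgr3, on opposite strands and the closest pair, changed in opposite directions. Within 200 kb of these 4 genes the table had 42 further genes, of which 16 were tested. Their log2 fold changes ran from -0.22 to 0.24. Usf1 rose (0.23, SE 0.08, edgeR adjusted p = 0.0293), Atf6 fell (-0.14, SE 0.05, edgeR adjusted p = 0.0399) and 14 were not called. Over all tested genes, 34.3% were called.

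Around Fcgr1 on chromosome 3, 6 of 51 genes were tested, and Sf3b4 rose (0.15, edgeR adjusted p = 0.018) while Bola1 fell (-0.36, edgeR adjusted p = 0.018). Around Fcgrt on chromosome 7, 19 of 44 genes were tested, and 1 rose and 3 fell, of which Prr12 had the furthest change (-0.22, edgeR adjusted p = 0.0179). Across the 6 receptor genes, 8 of 41 tested neighbours were called and none was a DEG, where 34.3% of all tested genes were called and 2.65% were DEG. The small RNA genes Mir6546, inside Fcgr3, and Gm26110, inside Fcgr4, were at 0 counts in every library, as was Gm45669 on the strand opposite Fcgrt.

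**Figure D4:**
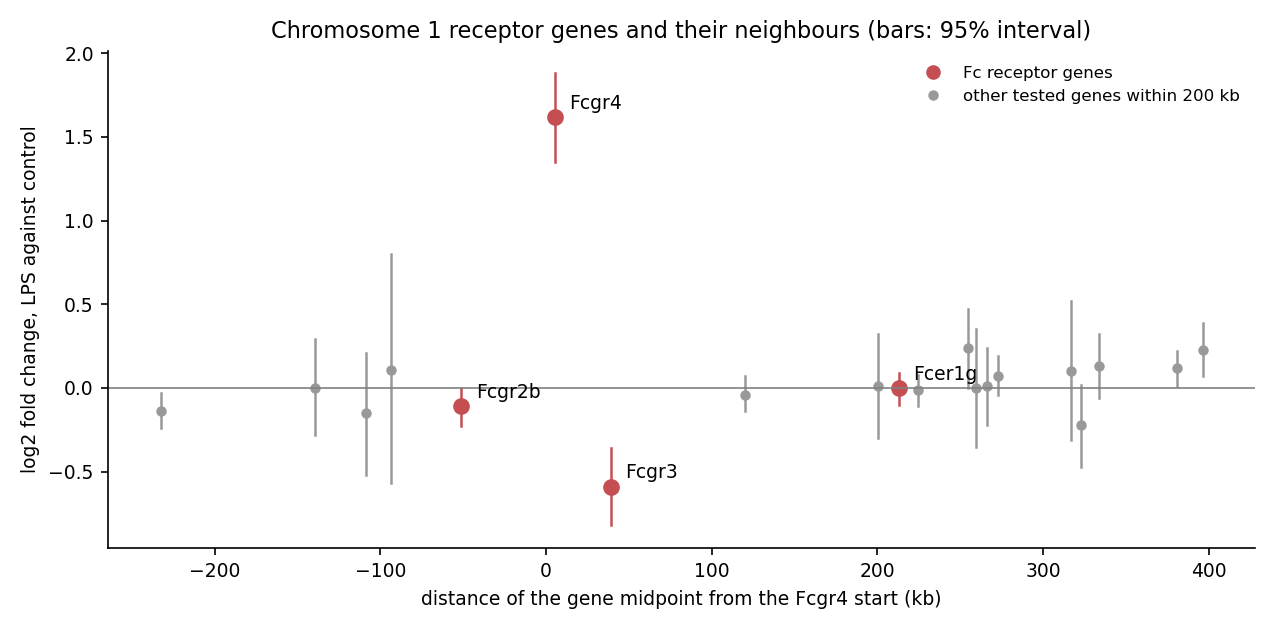
Log2 fold change (y axis) of the 4 receptor genes on chromosome 1, in red, and of the 16 tested genes within 200 kb of them, in grey, against the distance of the gene midpoint from the Fcgr4 start in kb; bars are 95% intervals. Fcgr4 at 1.62 and Fcgr3 at -0.59 stand outside the range of their tested neighbours, -0.22 to 0.24.

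Genes that pass the signal of the activating receptors on moved in both directions. Of 31 tested genes of this list, 7 rose, 8 fell and 16 were not called, where 18.7% of all tested genes rose and 15.7% fell. The median log2 fold change was -0.03, against 0.004 over all tested genes. The kinase Src, a DEG that glmTreat did not call, went from 19.3 ± 0.322 to 56.9 ± 2 CPM (log2 fold change 1.56, SE 0.07, edgeR adjusted p = 9.1e-11). Syk, the kinase that binds the phosphorylated gamma chain, rose from 157 ± 4.15 to 336 ± 8.2 CPM (1.10, SE 0.04, edgeR adjusted p = 3.7e-11). The adaptor Lcp2 (0.82, SE 0.07, edgeR adjusted p = 3.5e-07) and the PI3K regulatory subunit Pik3r5 (0.75, SE 0.04, edgeR adjusted p = 3.4e-09) rose. The PI3K catalytic subunit Pik3cd fell (-0.63, SE 0.04, edgeR adjusted p = 3.5e-08). Fgr, a kinase of the Src family, had 0 to 8 reads per library and was not tested. Without LPS replicate 3 the fallen genes numbered 5 in place of 8.

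The list of inhibitory signalling, which acts with Fcgr2b, had 14 tested genes, of which 3 rose, 6 fell and 5 were not called (median log2 fold change -0.06), beside 18.7% risen and 15.7% fallen over all tested genes. Inpp5d, the inositol phosphatase SHIP that binds the ITIM, had 3157, 3592 and 3837 reads in the controls and 2001, 2297 and 2303 in LPS. It fell with -0.55 (SE 0.06, edgeR adjusted p = 2.1e-06), as did the tyrosine phosphatase Ptpn6 with -0.55 (SE 0.04, edgeR adjusted p = 5.2e-08). The adaptor Dok3 (0.50, SE 0.05, edgeR adjusted p = 4.4e-06) and the ubiquitin ligase Cbl (0.43, SE 0.08, edgeR adjusted p = 7.9e-04) rose. Cbl did not pass with robust dispersion (edgeR adjusted p = 0.0549). The count of 6 fallen genes was 3 without LPS replicate 1, 3 without control replicate 2 and 3 with control replicate 1 as the only control library, while Inpp5d and Ptpn6 were called in each of the 15 alternatives.

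Of 46 genes of the phagocytic cup and its actin remodelling, 13 rose, 5 fell and 28 were not called (median log2 fold change 0.04), beside the same 18.7% and 15.7% over all tested genes. The DEG among them were Marcks and Marcksl1, which encode membrane-bound substrates of protein kinase C that bind actin. Marcksl1 went from 89.2 ± 3.2 to 406 ± 12.9 CPM (log2 fold change 2.19, SE 0.05, edgeR adjusted p = 3.7e-14). Marcks had 18, 30 and 52 reads in the controls and 242, 303 and 235 in LPS (3.10, SE 0.22, edgeR adjusted p = 4.2e-08), so the controls differed widely among themselves but not enough to reach the LPS libraries. Its log2 fold change was 3.92 with control replicate 1 as the only control library. The myosin Myo10 (0.55, SE 0.06, edgeR adjusted p = 2.4e-06) and the lipid kinase Pip5k1b (0.58, SE 0.06, edgeR adjusted p = 2.2e-06) rose. The phospholipase Pla2g4a (-0.75, SE 0.06, edgeR adjusted p = 5.5e-08) and the Arp complex subunit Arpc5l (-0.54, SE 0.05, edgeR adjusted p = 1.4e-06) fell. With control replicate 1 as the only control library, 7 genes of this list rose in place of 13.

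Of 14 other Fc receptor and Fc receptor-like genes, 3 passed the filter on low counts, and 1 rose, 1 fell and 1 was not called (median log2 fold change -0.15), beside 18.7% risen and 15.7% fallen over all tested genes. The genes Fcer1a and Ms4a2, the further chains of the IgE receptor, were at 0 counts in every library together with Fcer2a, Fcrl6 and Fcamr. The epithelial genes Pigr and Fcgbp were seen mainly in control replicate 2 (52 and 86 reads) and LPS replicate 3 (29 and 47 reads) and were not tested. Trim21, the cytosolic receptor for antibody on incoming particles, was a DEG. It had 139, 121 and 149 reads in the controls and 541, 614 and 512 in LPS (log2 fold change 2.16, SE 0.10, edgeR adjusted p = 4.5e-10). Fcrl1, an Fc receptor-like gene best known from B cells, fell from 14.1 ± 1.33 to 10.1 ± 1.11 CPM (-0.48, SE 0.12, edgeR adjusted p = 0.00604). The summed level of 9 B cell markers was 0.968 to 1.53 CPM in control and 0.913 to 1.77 CPM in LPS, with 2 of the 9 over 3 counts in some library and 3 at 0 in every library. Those 2 moved in opposite directions. Pax5 had 0, 0 and 0 reads in the controls and 18, 11 and 10 in LPS, and Ighm had 17, 27 and 16 in the controls and 7, 10 and 5 in LPS. The part of B cell transcripts in the Fcrl1 result was not tested. Fcrlb was not called (-0.15, SE 0.17, edgeR adjusted p = 0.537).

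Fcer1g also serves C-type lectins that sense microbial and damaged-cell ligands. Of 7 tested partner receptors and related adaptors, 2 rose, 1 fell and 4 were not called (median log2 fold change -0.03), beside 18.7% risen and 15.7% fallen over all tested genes. Clec4e (Mincle) rose from 591 ± 1.65 to 1413 ± 52.7 CPM (1.26, SE 0.03, edgeR adjusted p = 5.3e-13) and Clec4d from 136 to 186 CPM (0.45, SE 0.05, edgeR adjusted p = 4.2e-06). Clec4n (Dectin-2) fell with -0.28 (SE 0.09, edgeR adjusted p = 0.0224), a call that was lost without LPS replicate 1 (edgeR adjusted p = 0.0885), without control replicate 2 (edgeR adjusted p = 0.0723), with control replicate 1 as the only control library (edgeR adjusted p = 0.122) and with DESeq2 (adjusted p = 0.0564). Without LPS replicate 3, 2 genes of this list fell. Tyrobp, the adaptor DAP12 that resembles Fcer1g in function, was not called (-0.11, SE 0.05, edgeR adjusted p = 0.103).

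Among genes known as inputs to Fc gamma receptor transcription, 6 of 11 tested rose, 3 fell and 2 were not called, and the median log2 fold change was 0.40, beside 18.7% risen, 15.7% fallen and a median of 0.004 over all tested genes. Irf1, a transcription factor of the interferon response, rose from 11 ± 1.07 to 27.1 ± 0.789 CPM (log2 fold change 1.30, SE 0.10, edgeR adjusted p = 5.5e-08). Spi1, which encodes PU.1, rose from 282 ± 10.2 to 424 ± 13.5 CPM (0.58, SE 0.04, edgeR adjusted p = 5.4e-08). The receptor chains Il4ra (1.14, SE 0.09, edgeR adjusted p = 1.4e-07) and Ifngr2 (0.56, SE 0.05, edgeR adjusted p = 2.6e-07) rose as well. Ifngr1, the other chain of the interferon gamma receptor (-0.29, SE 0.09, edgeR adjusted p = 0.0258), and Tgfbr2 (-0.22, SE 0.06, edgeR adjusted p = 0.0133) fell. Irf8, a factor of myeloid cells, fell (-0.41, SE 0.06, edgeR adjusted p = 6.6e-05). Ifng was at 0 counts in every library and Il10 at 0 to 5. The fallen genes numbered 1 without LPS replicate 1 and 1 with control replicate 1 as the only control library.

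Over the 7 lists, each gene counted once, 34 of 125 tested genes rose, 25 fell and 66 were not called, and 7 were DEG, all of them upward. Over all tested genes, 18.7% rose, 15.7% fell and 2.40% were DEG upward. The lists held 148 genes, of which 144 had a row by that symbol. The median log2 fold change was -0.02.

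**Figure D5:**
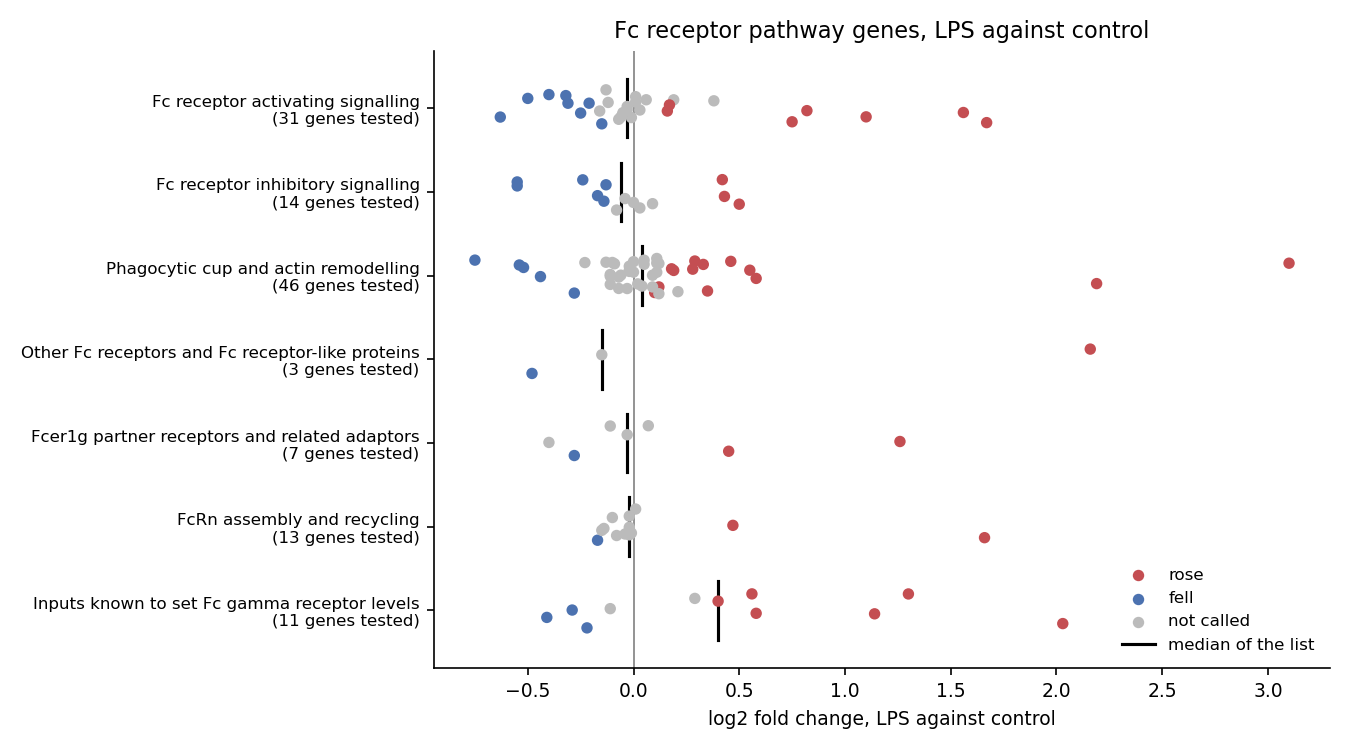
Log2 fold change (x axis) of each tested gene in the 7 pathway lists (y axis), with genes that rose in red, fell in blue and were not called in grey, and the list's median as a black line. The medians lie between -0.15 and 0.40, and the furthest points are Marcks at 3.10, Marcksl1 at 2.19 and Trim21 at 2.16.

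The genes whose levels over the 6 libraries were most like each called receptor gene were taken from 10457 genes averaging 50 counts or more, by the root mean square distance in log2 CPM relative to control. For Fcgr1 they were Pnp (distance 0.0489), Plk2 (0.0522) and Map6 (0.0528), with log2 fold changes of 1.07, 1.16 and 1.06. For Fcgr4 they were C130026I21Rik (distance 0.094), Ttc39c (0.107) and the inflammasome sensor Nlrp3 (0.111), with 1.59, 1.63 and 1.53. For Fcgr3 they were Rttn (distance 0.0405), Rap1gap (0.0472) and Bmt2 (0.0561), with -0.55, -0.58 and -0.60. For Fcgrt they were Ttc38 (distance 0.0227), Atg16l2 (0.0392) and Slc25a45 (0.0451), with -0.65, -0.66 and -0.66. The libraries fall into 2 treatment groups, so likeness here mostly restates a like fold change.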

How the data were processed

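RNA from N9 microglia was sequenced in 6 libraries, grouped as control and LPS by the labels. The authors deposited a table of whole read counts per gene, without normalization. Per the labels' processing notes, featureCounts 1.5.0-p3 and mm10 were used. The aligner, annotation release and use of strand are not given in the sources used here, and counts of overlapping genes depend on these. A second deposited table holds the authors' own log2 fold changes and p-values. These and its 18 further columns of values per sample were not used.

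From the counts, edgeR 4.0.16 (R 4.3.3) gave the quasi-likelihood test with TMM normalization, filterByExpr by group and no replicate term (prior count 0.125 for log2 fold changes). CPM used the TMM library sizes, and RPKM the exon length in the deposited table. The SE follows from the log2 fold change and its F statistic (ratio of the change to the root of F). Intervals are 95%. Within-library ratios were log2 ratios of the counts without a prior count, in which the library size cancels. Likeness and the correlations between libraries used log2 CPM with a prior count of 2. The labels name no molecular identifiers, so reads may repeat a molecule, and the floor of 3 counts covers counting error alone. Alternatives were DESeq2 1.42.0, RLE size factors, 2 other filters, a replicate block, glmTreat, robust dispersion, a prior count of 2, tests on protein-coding genes, leaving out each library, and controls 2 and 3 left out together. Figures used matplotlib 3.10.9.

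The 6 receptor genes and all lists were chosen with earlier results of these data known. Genes named from the lists are the DEG and up to 4 further called genes per list with the largest absolute log2 fold change and a mean of at least 50 counts. Some genes that the rule selects are not reported here. Neighbours are tested genes within 200 kb, and 3 most similar genes are named per called receptor gene. Irf8, Ifngr1, Tgfbr2 and genes given at or near 0, or as not called, were named after their values were seen. Positions match GENCODE M21 for the 6 genes. Promoters are from RefSeq on GRCm38.p6, which held a window for 6 of the 6 genes. The fit was tested on simulated counts, with the outcome not reported here.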

Additional observations from a re-analysis of the deposited data

How the results depend on the processing

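Fcgr1, Fcgr4, Fcgr3 and Fcgrt kept their direction and their call under 15 of 15 alternatives, with edgeR or DESeq2 adjusted p at most 1.5e-05, 2.3e-05, 0.0052 and 0.0264, and Fcgr2b was called in none (adjusted p 0.0639 to 0.628). With 1 library left out, log2 fold changes ran from 1.08 to 1.15 for Fcgr1, 1.52 to 1.69 for Fcgr4, -0.67 to -0.53 for Fcgr3, -0.72 to -0.55 for Fcgrt, -0.15 to -0.08 for Fcgr2b and -0.03 to 0.0077 for Fcer1g. The sign of Fcer1g, called in none of the 15, turned without LPS replicate 2 (0.0026), LPS replicate 3 (0.0058), control replicate 3 (0.0077) and controls 2 and 3 together (0.02). With those 2 libraries out, the remaining control was assumed to vary like the LPS libraries, and 15 pathway genes fell in place of 25 (18 to 27 with 1 library out), with fewer samples in the fit. By glmTreat against a log2 fold change of 1.5, 0 receptor genes were called in place of 1 DEG and 4 pathway genes in place of 7. Same-numbered libraries deviated together with correlations of -0.004 to 0.136, and 3 of 6 libraries correlated best with their own number. With 3 libraries per group, these correlations cannot settle whether the numbers pair the samples. With a replicate block, 4474 genes were called in place of 4221 (4159 in both), Fcgr1 was at 1.12, Fcgr4 at 1.61, Fcgr3 at -0.59, Fcgrt at -0.66, Fcgr2b at -0.11 and Fcer1g at -0.0041, and no call of the 6 genes changed. Fcgrt had 81 to 170 reads per library and Fcgr4 107 to 348. In the controls these were the lowest of the 6 genes, and in LPS Fcgrt and Fcgr3 (171 to 206 reads) were.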
